A study of Mus musculus with 8 samples.

Results

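Osteogenic induction for 7 days was followed in C3H10T1/2 cells that carried a short hairpin RNA (shRNA) against Nap1l2, by comparing the 2 libraries labelled KD-Nap1l2-7d with the 2 labelled KD-Nap1l2, taken at day 0. These 4 libraries, of 8 in the series, were chosen by their labels alone, and the response was described over all 13470 genes with enough counts to be tested, of 18605 in the table. C3H10T1/2 is a mouse mesenchymal line of embryonic origin, here from the C3H strain, that can be driven towards bone, fat and cartilage. The hairpin was delivered by lentivirus. The other 4 libraries came from cells labelled only as controls, which the study calls non-target, uninduced (NC) or induced for 7 days (NC-7d). What vector the control cells carried was not given in the sources used here. All day-7 cells had received the same osteogenic medium, high-glucose DMEM with serum, dexamethasone, ascorbic acid and β-glycerol phosphate. Day-0 cells were grown in DMEM with serum and none of these supplements. The number of clones or cultures behind each library was not stated, so p-values measure the spread between libraries, which may be technical. Days in culture, medium and cell density changed together between day 0 and day 7 and cannot be told apart.

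Osteogenic differentiation is controlled by transcription factors such as Runx2, Sp7 and Dlx5, and it ends in the secretion and mineralization of a matrix rich in type I collagen. Dexamethasone activates the glucocorticoid receptor, which binds DNA as a dimer at a palindromic sequence near its target genes and turns on genes such as Fkbp5, Tsc22d3 and Zbtb16. Ascorbic acid is a cofactor of the collagen hydroxylases, and β-glycerol phosphate is a source of phosphate for mineral. Nap1l2 belongs to the nucleosome assembly protein family, whose members carry histones to and from chromatin.

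Libraries held from 17420284 to 19427359 assigned counts over the series, and the 4 KD-Nap1l2 libraries from 17625622 to 18305523. Values below are normalized counts, that is, counts divided by the effective size of the library and multiplied by the mean effective size, and each is given per library, replicate 1 before replicate 2. Nap1l2 itself (chrX:103184176-103186653 in GRCm38.p6, as for all positions below) was near the limit of detection, with counts of 2 and 7 at day 0 and 7 and 13 at day 7 in the KD-Nap1l2 libraries and 3 and 3 at day 0 and 15 and 5 at day 7 in the NC libraries, so the knockdown could not be seen in these counts and groups are named by their labels. The log2 normalized counts of the replicates had a Pearson correlation across genes of 0.973 at day 0 and 0.988 at day 7, and the median absolute difference between replicates on the log2 scale was 0.262 at day 0 and 0.151 at day 7. Thus the 2 day-0 libraries lay further apart than the 2 day-7 libraries, and of all 30 gene lists examined the hypoxia and interferon genes differed most between them. Of 17 mesenchymal markers listed, 16 were tested, and of these Vim, Pdgfrb and Cd44 were abundant, with a lowest value of 3659 for Cd44 in any KD-Nap1l2 library. Nt5e, which encodes CD73, was not tested and had at most 1 count. Of the 16 leukocyte markers listed, only 4 had enough counts to be tested, and none of these passed the test in either direction.

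Induction changed the RNA of KD-Nap1l2 cells widely. Tested with the quasi-likelihood method of edgeR, with p-values adjusted by Benjamini-Hochberg over all genes tested, 1912 genes passed an adjusted p of 0.05, which is 14.2% of those tested. Of these, 921 were higher at day 7 (6.84%) and 991 lower (7.36%). Over all genes tested, 1109 were higher and 1273 lower by DESeq2. A fit of the 4 KD-Nap1l2 libraries alone gave 791 higher and 958 lower. Among the 1912, the change was at least 2-fold in 444 genes that rose and 595 that fell, and at least 16-fold in 49 and 51. Genes that rose took up 6.38% and 5.93% of the counts of the tested genes at day 0 and 14.2% and 14.3% at day 7, and genes that fell went from 13.2% and 13.3% to 5.92% and 6.07%. The median log2 fold change of all genes was -0.00705. Each of the 4 KD-Nap1l2 libraries was also left out in turn, which left 1 library in its group. Far fewer genes were called without either day-7 library than without either day-0 library, and the cause was not tested. In all 1912 genes both day-7 libraries lay on 1 side of both day-0 libraries. Leaving out 1 library could thus not be expected to turn their direction, and it did not. Most of them were not called in all 4 of these fits. Genes named below passed in all 4 unless the same paragraph says otherwise.

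**Figure D1:**
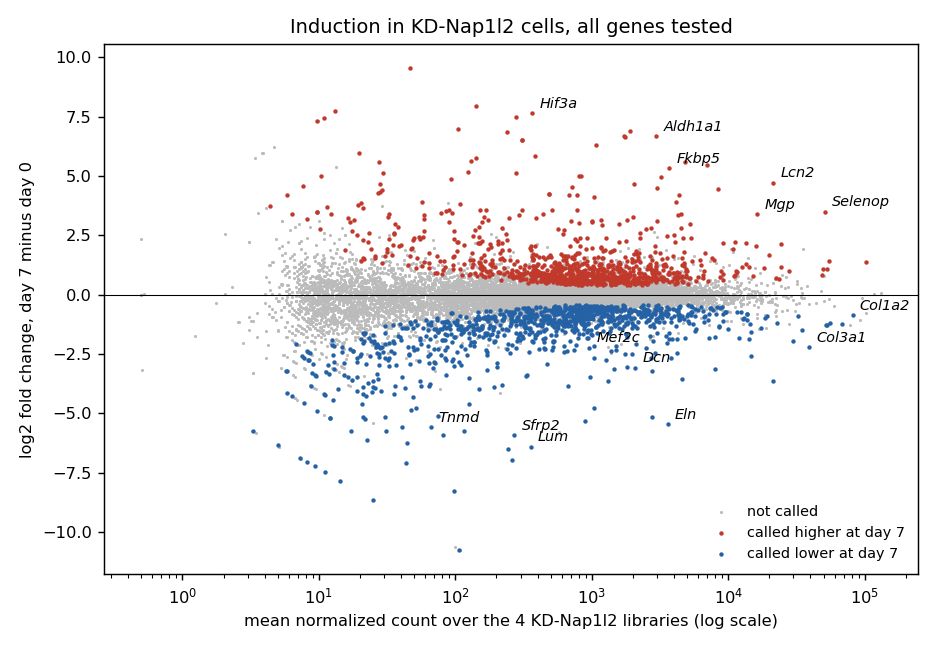
Log2 fold change at day 7 against the mean normalized count over the 4 KD-Nap1l2 libraries (log scale), 1 point per tested gene, with the 921 genes called higher in red and the 991 called lower in blue. Matrix genes such as Eln, Lum and Dcn lie low and Hif3a, Aldh1a1, Fkbp5 and Lcn2 high, while Col1a2, near the right edge, changed by less than 2-fold.

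Many of the largest rises were in genes that were nearly silent at day 0. Hif3a, which encodes a hypoxia-inducible factor subunit that lacks the strong activation domain of its relatives, went from 1.96 and 5.2 to 745 and 705 normalized counts (log2 fold change 7.63 ± 0.31, adjusted p = 4.32e-05, where ± is the standard error). Kng1, the kininogen gene, went from 1.96 and 4.16 to 527 and 584 (log2 fold change 7.46 ± 0.71, adjusted p = 0.00117), and Clca3a1, of the calcium-activated chloride channel regulator family, from 29.4 and 34.3 to 3564 and 3985 (log2 fold change 6.89 ± 0.43, adjusted p = 0.000264). Kcnj15, which encodes an inwardly rectifying potassium channel, went from 4.89 and 3.12 to 524 and 423 (log2 fold change 6.83 ± 0.58, adjusted p = 0.000814). The retinaldehyde dehydrogenase gene Aldh1a1 rose 101-fold, with 70.5 and 44.8 at day 0 and 5237 and 6492 at day 7 (adjusted p = 0.000241). Its close relative Aldh1a7 rose 104-fold, with 27.4 and 38.5 at day 0 and 3096 and 3733 at day 7 (adjusted p = 0.000447), and reads of this pair may be shared. Cybb, the catalytic subunit of the phagocyte NADPH oxidase, had 6.85 and 6.24 at day 0 and 698 and 527 at day 7 (log2 fold change 6.52 ± 0.57, adjusted p = 0.000871). Rnase2a, of the secreted ribonuclease family, had counts of 2 and 1 at day 0 and 148 and 257 at day 7, a ratio of 137 (95% counting interval 46.5 to 667). This interval, like the others of this kind below, covers counting error only. Ifi206, of the interferon-inducible Ifi200 family, went from 41.1 and 27.1 to 3184 and 3689 (log2 fold change 6.65 ± 0.72, adjusted p = 0.00218), and the uncharacterized 4930486L24Rik from 9.79 and 3.12 to 580.4 and 645 (log2 fold change 6.52 ± 0.39, adjusted p = 0.000236). Both day-7 libraries lay above both day-0 libraries in all 921 genes called higher, against 30.8% of all genes tested. These genes were called on the same libraries, so the lack of overlap follows from the calls and adds no support to them. For the largest rises it was also a condition of the rule that named them. The 5 most abundant genes that rose were Fth1, Spp1, C3, Selenop and Ftl1. Fth1, the ferritin heavy chain gene, had 58502 and 55165 at day 0 and 139729 and 153630.0 at day 7 (log2 fold change 1.37 ± 0.15, adjusted p = 0.0023), and Ftl1, the light chain gene, 26326 and 37775 at day 0 and 57687 and 75959 at day 7 (log2 fold change 1.06 ± 0.23, adjusted p = 0.024). Ftl1 did not pass with day-0 replicate 1 or either day-7 replicate left out (adjusted p from 0.0594 to 0.157).

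Many of the deepest falls were in genes of secreted proteins of connective tissue. Lum (chr10:97565501-97572703), which encodes the collagen-binding proteoglycan lumican, went from 857 and 553 to 9.02 and 7.31 normalized counts (log2 fold change -6.41 ± 0.56, adjusted p = 0.000879). Eln (chr5:134702595-134747368), which encodes tropoelastin, went from 7614 and 6478 to 133 and 190.1 (log2 fold change -5.45 ± 0.43, adjusted p = 0.000669). Tnmd, which encodes tenomodulin of tendon, went from 144 and 114 to 1.0 and 4.18 (log2 fold change -5.59 ± 0.62, adjusted p = 0.00223). The Wnt-binding protein gene Sfrp2 went from 540.2 and 523 to 5.01 and 12.5 (log2 fold change -5.91 ± 0.62, adjusted p = 0.00178), and the collectin gene Colec10 from 1878 and 1608 to 50.1 and 37.6 (log2 fold change -5.31 ± 0.60, adjusted p = 0.00232). The tight junction gene Cldn19 went from 335 and 117 to 2.0 and 6.27 (log2 fold change -5.74 ± 0.94, adjusted p = 0.00914). The metalloprotease gene Adamts16 went from 215 and 106 to 4.01 and 1.04 (log2 fold change -5.91 ± 0.67, adjusted p = 0.00239). Rgs8, a regulator of G protein signalling, had counts of 250 and 173 at day 0 and 0 and 0 at day 7 and was at least 57.5-fold lower at day 7, taking 3 counts per library as the floor (adjusted p = 0.00854). Sorcs1, a sorting receptor of the VPS10 family, had counts of 272 and 120 at day 0 and 0 and 1 at day 7, 387 (95% counting interval 69 to 15306) times fewer at day 7, and the small proteoglycan gene Epyc had 136 and 37 at day 0 and 0 and 1 at day 7, 171 (95% counting interval 30.2 to 6777) times fewer. Rgs8, Sorcs1, Epyc and Cldn19 did not pass with either day-7 replicate left out (adjusted p from 0.0571 to 0.0961). Each of these 4 calls thus needed both day-7 libraries.

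**Figure D2:**
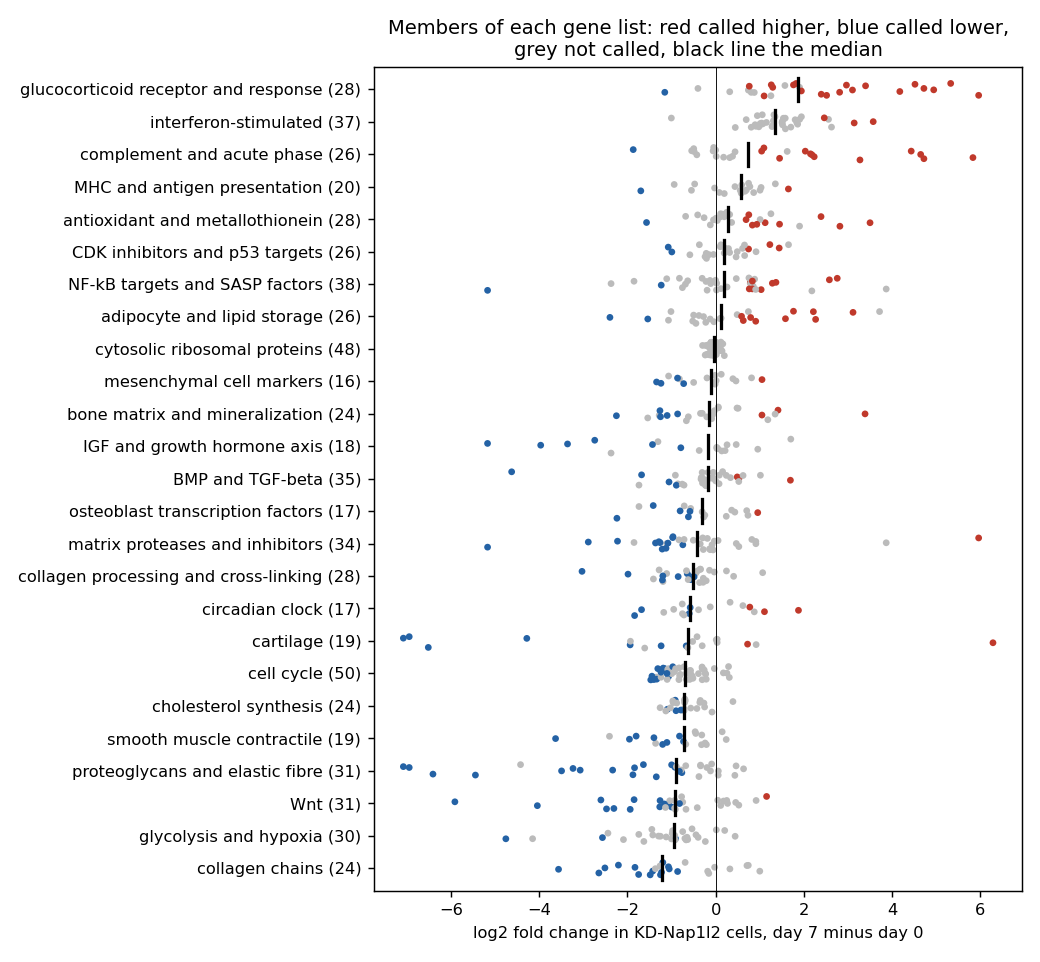
Log2 fold changes of the tested members of 25 gene lists (number tested in brackets), with red called higher, blue called lower, grey not called, and the black line the median. The glucocorticoid list lies furthest right with a median of 1.86 and the collagen list furthest left with -1.21.

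Of the 30 lists, the genes that respond to glucocorticoids had the highest share of calls, at 71.4%. The lists share some members, such as Lcn2, given with the acute phase genes. Of 28 members tested, 19 rose, 1 fell and 8 did not pass, with a median log2 fold change of 1.86, against 6.84% of all genes called higher and a median of -0.00705. Fkbp5 (chr17:28398753-28486149), which encodes a chaperone of the receptor and feeds back on it, rose 40.2-fold, with 183 and 175 at day 0 and 7306 and 7093 at day 7 (log2 fold change 5.33 ± 0.38, adjusted p = 0.000483). Tsc22d3, also known as GILZ, had 601 and 966 at day 0 and 8863 and 7666 at day 7 (log2 fold change 3.40 ± 0.26, adjusted p = 0.00059), and the transcription factor gene Zbtb16 had 40.1 and 104 at day 0 and 1176 and 1421 at day 7 (log2 fold change 4.18 ± 0.39, adjusted p = 0.00105). In all 3 genes the 2 day-7 libraries lay within 1.3-fold of each other, while for Zbtb16 the 2 day-0 libraries differed more. The kinase genes Sgk1 and Pdk4 rose 7.02-fold and 8.59-fold (adjusted p = 0.000659 and 0.000849). Sgk1, which acts on ion channels, had 1037 and 1219 at day 0 and 8490.2 and 7348 at day 7, and Pdk4, which shuts off pyruvate dehydrogenase, had 517 and 732 at day 0 and 5536 and 5187 at day 7. Glul, the glutamine synthetase gene, had 1187 and 1203 at day 0 and 5837 and 7839 at day 7 (log2 fold change 2.52 ± 0.18, adjusted p = 0.000509). Sult1a1, a phenol sulfotransferase gene, rose 22.9-fold with the smallest adjusted p of the list (2.56e-05), from 55.8 and 63.5 to 1277 and 1462. Fam107a had 296 and 110.3 at day 0 and 6335 and 6198 at day 7 (log2 fold change 4.94 ± 0.46, adjusted p = 0.00107). The receptor gene itself, Nr3c1, went the other way, with 3692 and 4841 at day 0 and 2011 and 1827 at day 7 (log2 fold change -1.15 ± 0.20, adjusted p = 0.0106). The metallothionein genes Mt1 and Mt2 did not pass, with 2099 and 9895 at day 0 and 11546 and 17056 at day 7 for Mt1 and 1259 and 7555 at day 0 and 13424 and 19538 at day 7 for Mt2, where KD-Nap1l2 replicate 1 was far below replicate 2. Nr3c1 did not pass with either day-7 replicate left out (adjusted p from 0.0802 to 0.0947). The count of members that rose was 17, 22, 15 and 16 when each of the 4 libraries was left out in turn.

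Promoters of some genes that rose are shown because the receptor's palindrome can be read in them. RefSeq promoters (GRCm38.p6, 250 bases before and 50 after the start) were matched by gene ID for 23 of the 28 tested glucocorticoid genes. The palindrome core, GNACA followed after any 3 bases by TGTNC, reads the same on both strands and was found in 145 of all 27025 genes with a promoter in the table (0.537%), in 44 of the 10651 tested genes with one (0.413%) and in 3 of the 23 (13.0%). The 3 were Sgk1, Fam107a and the metallothionein gene Mt1, which did not pass. The single arm TGTTCT, sought on either strand, was found in 21.3%, 15.2% and 21.7% of these. A promoter was matched for 79.1% of all tested genes and 82.1% of the glucocorticoid genes, so these shares describe the matched genes and the comparison with all tested genes is void. Of the genes called higher 10 held the core and of the genes called lower 1, but only 79.4% and 74.8% of them had a promoter in the table, so that comparison is void too. A gene with several RefSeq starts was counted if the promoter of any of them held the letters. The windows below lie before a RefSeq start of a gene that rose, read 5′ to 3′ on the strand of the gene, with the palindrome core in capitals. All 5 are called genes that held the core, and only Sgk1 and Fam107a are of the glucocorticoid list. Slc10a6, which encodes a transporter of sulfated steroids, and Trim63, which encodes a ubiquitin ligase of muscle, were chosen after their values were seen. The core was also held by Amy1, Mpv17, Map3k6, Suox and Map7d2, which rose, and by Eml1, which fell.
Sgk1 (chr10:21993677-21993739, plus strand): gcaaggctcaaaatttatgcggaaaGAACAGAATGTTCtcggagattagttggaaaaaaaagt
Fam107a (chr14:8309860-8309922, minus strand): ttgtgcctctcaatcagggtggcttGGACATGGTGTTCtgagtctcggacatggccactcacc
Slc10a6 (chr5:103629529-103629591, minus strand): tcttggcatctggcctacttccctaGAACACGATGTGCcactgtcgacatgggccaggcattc
Serpina3n (chr12:104406605-104406667, plus strand): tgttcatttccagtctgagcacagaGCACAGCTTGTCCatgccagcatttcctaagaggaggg
Trim63 (chr4:134314887-134314949, plus strand): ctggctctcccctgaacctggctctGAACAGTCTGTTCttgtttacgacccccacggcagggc
The windows of Sgk1 and Fam107a, with 6 and 3 starts in the table, lie wholly inside the annotated span of the gene, before a start within it, and 22 bases of the Serpina3n window lie inside its span. The other 2 lie outside, and none of the 5 overlaps a GENCODE exon. Counted to the start used, the core began 188 bases before it in Sgk1, 118 in Fam107a, 163 in Slc10a6, 78 in Serpina3n and 208 in Trim63. The full palindrome, AGAACA and TGTTCT 3 bases apart, was found in 3 promoters of the whole table, and Sgk1 was the 1 tested gene among them. Slc10a6 had 3.91 and 6.24 at day 0 and 214 and 299 at day 7 (log2 fold change 5.63 ± 0.39, adjusted p = 0.000447) and Trim63 20.6 and 9.37 at day 0 and 70.2 and 59.5 at day 7 (log2 fold change 2.10 ± 0.41, adjusted p = 0.0164). Trim63 did not pass with day-0 replicate 2 or either day-7 replicate left out (adjusted p from 0.0541 to 0.108). A match of letters is a description and shows no binding, and Fkbp5 and Tsc22d3 had no such core in the windows searched.

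Acute phase and complement genes gave more rises than falls. Of 26 members tested, 12 rose, 1 fell and 13 did not pass, with a median log2 fold change of 0.74, against 6.84% of all genes called higher. The rises numbered 12 and 11 without each day-0 library and 7 and 8 without each day-7 library. Lcn2 (chr2:32384637-32387739), which encodes the iron-siderophore binding protein lipocalin-2, rose 26.4-fold, with 1888 and 1212 at day 0 and 46624 and 35217 at day 7 (log2 fold change 4.72 ± 0.27, adjusted p = 0.000199). The serum amyloid gene Saa3 had 21.5 and 4.16 at day 0 and 1053 and 447 at day 7 (log2 fold change 5.83 ± 0.66, adjusted p = 0.00234), and the haptoglobin gene Hp had 237 and 71.8 at day 0 and 4404 and 3374 at day 7 (log2 fold change 4.65 ± 0.54, adjusted p = 0.00251). The day-0 libraries differed from each other by several fold in both genes, and both day-7 libraries lay far above them. The protease inhibitor gene Serpina3n had 232 and 526 at day 0 and 3688 and 3624 at day 7 (log2 fold change 3.27 ± 0.42, adjusted p = 0.00378), and Cp, which encodes the copper ferroxidase ceruloplasmin, had 9952 and 7963 at day 0 and 42469.9 and 37057 at day 7 (log2 fold change 2.15 ± 0.24, adjusted p = 0.00224). Of the complement genes, Cfb, which encodes factor B of the alternative pathway, had 60.7 and 48.9 at day 0 and 244 and 256 at day 7 (log2 fold change 2.18 ± 0.31, adjusted p = 0.00531). C3 itself, already abundant at day 0, had 35733 and 31143 at day 0 and 79637 and 63202 at day 7 (log2 fold change 1.09 ± 0.19, adjusted p = 0.011). The pentraxin gene Ptx3 was the 1 member that fell, with 5356 and 6728 at day 0 and 1627 and 1683 at day 7 (log2 fold change -1.87 ± 0.29, adjusted p = 0.00795). C3 did not pass with day-7 replicate 1 left out (adjusted p = 0.0937). Ptx3 did not pass with either day-7 replicate left out (adjusted p from 0.0728 to 0.0822).

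Among 38 NF-κB targets and secreted factors of senescence, 9 rose, 2 fell and 27 did not pass (median 0.19). By comparison, 6.84% of all genes were called higher and 7.36% lower. The 9 rises became 8 and 11 without each day-0 library and 3 without either day-7 library, and the 2 falls 5 and 3 without each day-0 library and 1 without either day-7 library. The neutrophil chemokine gene Cxcl1 had 601 and 691 at day 0 and 4387 and 3332 at day 7 (log2 fold change 2.58 ± 0.20, adjusted p = 0.00059), and the related Cxcl5 had 919.9 and 370.5 at day 0 and 4554 and 4179 at day 7 (log2 fold change 2.76 ± 0.45, adjusted p = 0.00944). The monocyte chemokine genes Ccl2 and Ccl7, which are neighbours on chromosome 11 (chr11:82035577-82037452 and chr11:82045712-82047525), had similar rises. Ccl2 had 1798 and 1284 at day 0 and 3641 and 3879 at day 7 (log2 fold change 1.29 ± 0.17, adjusted p = 0.00437) and Ccl7 1229 and 1278 at day 0 and 3292 and 3179 at day 7 (log2 fold change 1.37 ± 0.12, adjusted p = 0.00082), so each rose by a little over 2-fold. Ptgs2, which encodes the inducible cyclooxygenase, had 476 and 691 at day 0 and 1481 and 904 at day 7 (log2 fold change 1.03 ± 0.27, adjusted p = 0.0408), with the 2 day-7 libraries apart. Tnfrsf11b, which encodes the RANKL decoy receptor osteoprotegerin, fell, with 2086 and 1987 at day 0 and 812 and 921 at day 7 (log2 fold change -1.23 ± 0.23, adjusted p = 0.0133), and the gelatinase gene Mmp9 fell from 53.8 and 65.6 to 1.0 and 2.09 (3 counts in all at day 7, 38.8 (95% counting interval 13 to 191) times fewer). The collagenase gene Mmp13 had 1.96 and 20.8 at day 0 and 209 and 122 at day 7 and did not pass (adjusted p = 0.0852). Cxcl5 and Tnfrsf11b did not pass with either day-7 replicate left out (adjusted p from 0.0528 to 0.118). Ptgs2 did not pass with day-0 replicate 1 or either day-7 replicate left out (adjusted p from 0.052 to 0.25).

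Osteoblast transcription factors mostly moved down or did not pass. Of 22 listed, 17 were tested, of which 1 rose, 5 fell and 11 did not pass (median -0.30). Over all genes 6.84% were called higher and 7.36% lower. The 5 falls became 7 and 2 without each day-0 library and 0 without either day-7 library. Runx2 (chr17:44495987-44814797), the master regulator of the lineage, had 1323 and 1669 at day 0 and 976 and 1023 at day 7 (log2 fold change -0.58 ± 0.14, adjusted p = 0.0334), and Dlx5, a homeobox gene that acts with it, had 343 and 418 at day 0 and 229 and 207 at day 7 (log2 fold change -0.80 ± 0.17, adjusted p = 0.0224). Mef2c fell most, with 1073 and 2080.4 at day 0 and 329.8 and 338 at day 7 (log2 fold change -2.24 ± 0.33, adjusted p = 0.00638), and the homeobox gene Msx1 had 188 and 235 at day 0 and 79.2 and 79.4 at day 7 (log2 fold change -1.41 ± 0.21, adjusted p = 0.00671). Zfp521, whose product binds Runx2, was the 1 that rose, with 1252 and 1113 at day 0 and 2717 and 1865 at day 7 (log2 fold change 0.95 ± 0.22, adjusted p = 0.0268). Sp7, which encodes osterix, was not tested for want of counts, with 4 and 5 at day 0 and 5 and 1 at day 7. The sixth call was Twist1, which also fell, and none of the 6 held in every fit that left out a library. Runx2 and Dlx5 did not pass with day-0 replicate 2 or either day-7 replicate left out (adjusted p from 0.0746 to 0.202). Msx1 and Mef2c did not pass with either day-7 replicate left out (adjusted p from 0.063 to 0.0705). Zfp521 did not pass with day-0 replicate 2 or day-7 replicate 1 left out (adjusted p from 0.101 to 0.179). Fitted on log2(FPKM + 1) with limma instead, the value of Runx2 changed sign and did not pass.

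Bone matrix genes did not move together. Of 24 tested, 3 rose, 5 fell and 16 did not pass (median -0.14), against 6.84% of all genes called higher and 7.36% lower. Without either day-7 library 1 rose and none fell. Mgp (chr6:136872435-136875823), which encodes matrix Gla protein, an inhibitor of calcification, rose 10.5-fold, with 2942 and 2732 at day 0 and 24045 and 35349 at day 7 (log2 fold change 3.39 ± 0.43, adjusted p = 0.00348). Spp1, which encodes osteopontin, had 31383 and 28721 at day 0 and 81655 and 78559 at day 7 (log2 fold change 1.41 ± 0.38, adjusted p = 0.0446), and the phosphate transporter gene Slc20a1 had 403 and 313 at day 0 and 753 and 732 at day 7 (log2 fold change 1.05 ± 0.18, adjusted p = 0.0104). On the other side, Sparc, which encodes osteonectin, had 62820.1 and 84248 at day 0 and 31823 and 29484 at day 7 (log2 fold change -1.26 ± 0.23, adjusted p = 0.0124) and Tnc, the tenascin gene, 3661 and 4529 at day 0 and 706 and 1017 at day 7 (log2 fold change -2.25 ± 0.37, adjusted p = 0.00885). The classical late markers stayed near the limit of detection: the alkaline phosphatase gene Alpl had counts of 3 and 0 at day 0 and 6 and 10 at day 7, the osteocalcin gene Bglap 14 and 0 at day 0 and 13 and 22 at day 7, and the bone sialoprotein gene Ibsp 0 and 0 at day 0 and 2 and 0 at day 7. Alpl and Ibsp were not tested, and Bglap did not pass (adjusted p = 0.431). At this depth 3 counts correspond to 0.164 to 0.17 CPM in these 4 libraries, so no statement on these 3 genes can be made beyond that. Spp1 did not pass with either day-0 replicate or either day-7 replicate left out (adjusted p from 0.0932 to 0.186). Slc20a1, Sparc and Tnc did not pass with either day-7 replicate left out (adjusted p from 0.0541 to 0.106).

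Most collagen chain genes fell. Of 24 collagen chain genes tested, none rose, 14 fell and 10 did not pass (median -1.21), against 7.36% of all genes called lower. Without each day-0 library 15 and 10 fell, and without each day-7 library 4 and 5. The fibrillar collagen genes were among the most abundant RNAs of these cells. Col1a1 had 72627 and 118670.0 at day 0 and 39539 and 40895 at day 7 (log2 fold change -1.25 ± 0.27, adjusted p = 0.0223) and Col1a2 95757 and 114158 at day 0 and 57036 and 58496 at day 7 (log2 fold change -0.86 ± 0.20, adjusted p = 0.0271), with the 2 day-0 libraries apart for Col1a1. Col3a1 (chr1:45311538-45349706) fell 4.61-fold, with 51608 and 76653 at day 0 and 14674 and 13168 at day 7 (log2 fold change -2.20 ± 0.27, adjusted p = 0.00317). Col5a3 had 4414 and 8637 at day 0 and 1072 and 1011 at day 7 (log2 fold change -2.65 ± 0.29, adjusted p = 0.00213), and Col6a1, of the microfibrillar collagen VI, 68876 and 86100.1 at day 0 and 32311 and 35308 at day 7 (log2 fold change -1.20 ± 0.17, adjusted p = 0.00482). The steepest fall was in Col15a1 of the basement membrane zone, with 9281 and 7686 at day 0 and 559 and 878 at day 7 (log2 fold change -3.56 ± 0.55, adjusted p = 0.00737). Col28a1, of a minor collagen, had 2571 and 3427 at day 0 and 435 and 618 at day 7 (log2 fold change -2.51 ± 0.40, adjusted p = 0.00827). Col4a1, a chain of the main basement membrane collagen, had 16272 and 23642 at day 0 and 29415 and 37291 at day 7 and did not pass (adjusted p = 0.0899). Col1a1 and Col1a2 did not pass with day-0 replicate 2 or either day-7 replicate left out (adjusted p from 0.0672 to 0.171). Col6a1 did not pass with day-7 replicate 1 left out (adjusted p = 0.0636). Col15a1 and Col28a1 did not pass with either day-7 replicate left out (adjusted p from 0.0551 to 0.0887). Of the 14 falls, 4 were called in all 4 fits that left out a library.

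**Figure D3:**
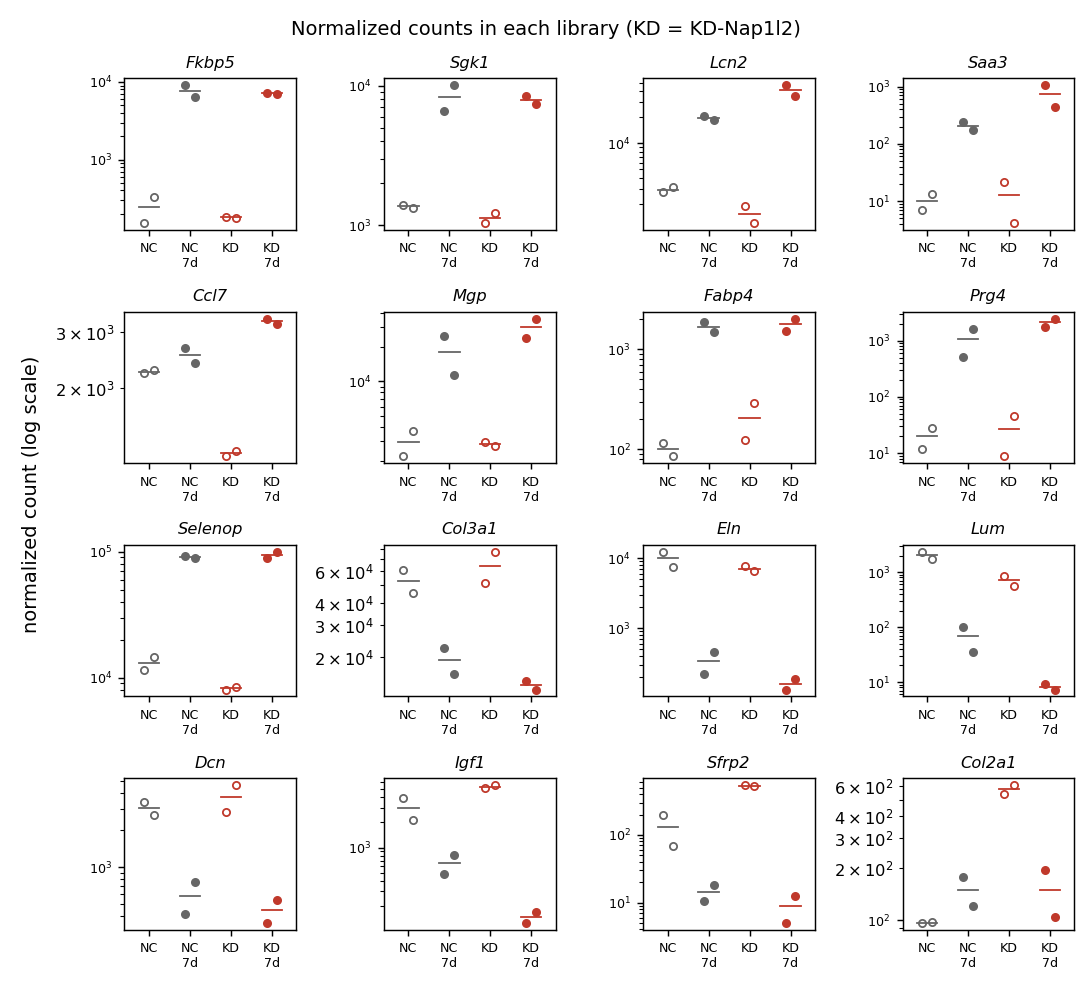
Normalized counts (log scale) of 16 genes in each library of the 4 groups, open points at day 0 and filled points at day 7, grey for NC and red for KD-Nap1l2, with a line at the mean of the 2 libraries. In each panel both KD-Nap1l2-7d libraries lie on 1 side of both KD-Nap1l2 libraries, above them from Fkbp5 to Selenop and below them from Col3a1 to Col2a1.

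The machinery of collagen folding and secretion fell in part. Of 28 such genes, none rose, 9 fell and 19 did not pass (median -0.52), against 7.36% of all genes called lower. The falls numbered 16 and 4 without each day-0 library and 0 and 1 without each day-7 library. Serpinh1, which encodes the collagen chaperone HSP47, had 25364 and 37504 at day 0 and 14698 and 12733 at day 7 (log2 fold change -1.20 ± 0.22, adjusted p = 0.0133), and P3h3, which encodes a member of the prolyl 3-hydroxylase family, had 1952 and 2977 at day 0 and 1056 and 1081 at day 7 (log2 fold change -1.21 ± 0.20, adjusted p = 0.0102). Pcolce2, an enhancer of procollagen C-proteinase, fell furthest, with 2812 and 3619.6 at day 0 and 279.7 and 509 at day 7 (log2 fold change -3.03 ± 0.49, adjusted p = 0.00867). P3h2, a relative of P3h3, had 429 and 752 at day 0 and 144 and 154 at day 7 (log2 fold change -1.99 ± 0.37, adjusted p = 0.0139). None of the 9 calls held in all 4 fits that left out a library. Serpinh1 and P3h3 did not pass with either day-7 replicate left out (adjusted p from 0.0825 to 0.116). P3h2 did not pass with day-0 replicate 2 or either day-7 replicate left out (adjusted p from 0.0503 to 0.115). Pcolce2 did not pass with day-7 replicate 1 left out (adjusted p = 0.0863). The cross-linking enzyme gene Lox had 33332 and 64815 at day 0 and 38926 and 37347 at day 7 and did not pass, and P4ha1, of the prolyl 4-hydroxylase that uses ascorbic acid, had 4407 and 16194 at day 0 and 4513 and 3964 at day 7 and did not pass either. For these 2 genes KD-Nap1l2 replicate 2 stood above the other 3 libraries.

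Proteoglycan and elastic fibre genes gave 16 falls, the highest count of any list. Of 31 tested, the other 15 did not pass and none rose (median -0.89). The background was 7.36% of all genes called lower, and the 16 falls became 17 and 13 without each day-0 library and 6 and 8 without each day-7 library. Besides Lum and Eln above, Dcn, which encodes decorin, fell 8.4-fold, with 2809 and 4647 at day 0 and 352 and 536 at day 7 (log2 fold change -3.07 ± 0.37, adjusted p = 0.00316). The fibrillin genes both fell, Fbn1 with 13115 and 11494 at day 0 and 5182 and 4506 at day 7 (log2 fold change -1.34 ± 0.14, adjusted p = 0.0019) and Fbn2 with 5682 and 4272 at day 0 and 562 and 496 at day 7 (log2 fold change -3.23 ± 0.23, adjusted p = 0.000483). Fmod, which encodes fibromodulin, had 436 and 603 at day 0 and 7.02 and 1.04 at day 7 (log2 fold change -6.95 ± 1.15, adjusted p = 0.00948), Fbln5, which encodes an elastin-binding fibulin, 4273 and 7199.6 at day 0 and 1499.7 and 1629 at day 7 (log2 fold change -1.87 ± 0.24, adjusted p = 0.00378), and Thbs1, the thrombospondin-1 gene, 22363 and 14911 at day 0 and 5486 and 4939 at day 7 (log2 fold change -1.84 ± 0.37, adjusted p = 0.0191). Biglycan, the most abundant member, showed no such fall: Bgn had 120782 and 138656 at day 0 and 134147 and 136082 at day 7 (adjusted p = 0.836). Fmod did not pass with either day-7 replicate left out (adjusted p from 0.0766 to 0.0889). Fbln5 did not pass with day-7 replicate 1 left out (adjusted p = 0.051). Thbs1 did not pass with day-0 replicate 1 or either day-7 replicate left out (adjusted p from 0.0505 to 0.134).

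Matrix proteases and their inhibitors gave more falls than rises, with 1 of 34 genes higher, 12 lower and 21 not passing (median -0.43). Over all genes 6.84% were called higher and 7.36% lower. Leaving out each day-0 library gave 12 and 8 falls, and leaving out either day-7 library gave 2. Adamts5, which encodes the main aggrecanase, had 6134 and 8205 at day 0 and 3114 and 3079.5 at day 7 (log2 fold change -1.21 ± 0.16, adjusted p = 0.00441), and Serpine2, a protease inhibitor gene and 1 of the 5 most abundant genes that fell, had 70078 and 78934 at day 0 and 29999 and 31090.5 at day 7 (log2 fold change -1.29 ± 0.19, adjusted p = 0.00589). Adamtsl1, of the ADAMTS-like family without protease activity, had 197 and 517 at day 0 and 45.1 and 51.2 at day 7 (log2 fold change -2.89 ± 0.52, adjusted p = 0.012), and the protease gene Adamts15 59.7 and 36.4 at day 0 and 13 and 7.31 at day 7 (log2 fold change -2.22 ± 0.61, adjusted p = 0.049). Timp4, an inhibitor gene, was the 1 that rose, from 0.979 and 0 to 25.1 and 53.3 (1 count in all at day 0, a ratio of 77.1 (95% counting interval 13.4 to 3084), adjusted p = 0.00848). Adamts5, Serpine2 and Adamtsl1 did not pass with either day-7 replicate left out (adjusted p from 0.0519 to 0.108). Timp4 did not pass with day-7 replicate 2 left out (adjusted p = 0.056). Adamts15 did not pass with either day-0 replicate or either day-7 replicate left out (adjusted p from 0.0705 to 0.237).

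Of 19 cartilage genes tested, 2 rose, 7 fell and 10 did not pass (median -0.63), against 6.84% of all genes higher and 7.36% lower. The 7 falls became 5 and 7 without each day-0 library and 1 and 2 without each day-7 library. Prg4, which encodes lubricin of the joint surface, was among the 12 largest rises of all genes, with 8.81 and 45.8 at day 0 and 1773 and 2456 at day 7 (log2 fold change 6.29 ± 0.78, adjusted p = 0.0034). Col2a1, the type II collagen gene, fell, with 541 and 606 at day 0 and 194 and 104 at day 7 (log2 fold change -1.94 ± 0.30, adjusted p = 0.00783), and so did Cnmd, which encodes chondromodulin, with 629 and 329.9 at day 0 and 2.0 and 8.35 at day 7 (log2 fold change -6.51 ± 0.93, adjusted p = 0.00541). Col11a2, a chain of the cartilage collagen XI, was the other that rose, with 212 and 205 at day 0 and 335 and 355 at day 7 (log2 fold change 0.72 ± 0.17, adjusted p = 0.0275). Sox9, the chondrocyte regulator, had 8105 and 6485 at day 0 and 4490.2 and 4703 at day 7 (log2 fold change -0.67 ± 0.17, adjusted p = 0.0369). Acan, the aggrecan gene, had counts of 0 and 1 at day 0 and 2 and 4 at day 7 and was not tested. Cnmd did not pass with day-7 replicate 1 left out (adjusted p = 0.0663). Sox9 did not pass with day-0 replicate 1 or either day-7 replicate left out (adjusted p from 0.0963 to 0.209). Col11a2 did not pass with day-0 replicate 2 or either day-7 replicate left out (adjusted p from 0.0785 to 0.165).

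In the Wnt list 1 of 31 genes rose, 13 fell and 17 did not pass (median -0.93). By comparison, 6.84% of all genes were called higher and 7.36% lower. The 13 included ligands, frizzled receptors and secreted antagonists. Without either day-0 library 12 fell, and without each day-7 library 4 and 6. Besides Sfrp2, Sfrp1 had 6810.5 and 4721 at day 0 and 2766 and 3009.5 at day 7 (log2 fold change -0.998 ± 0.19, adjusted p = 0.0154), and the nuclear effector gene Tcf7 had 286 and 271 at day 0 and 81.2 and 73.1 at day 7 (log2 fold change -1.85 ± 0.27, adjusted p = 0.00626). The ligand gene Wnt6 fell from 41.1 and 30.2 to 1.0 and 3.13 (log2 fold change -4.04 ± 0.71, adjusted p = 0.0114) and the Dickkopf family gene Dkk3 from 15.7 and 10.4 to 1.0 and 3.13 (log2 fold change -2.60 ± 0.68, adjusted p = 0.041), while the antagonist gene Nkd2 was the 1 that rose, from 97.9 and 64.5 to 168 and 194 (log2 fold change 1.16 ± 0.25, adjusted p = 0.0223). Sfrp1, Tcf7 and Wnt6 did not pass with either day-7 replicate left out (adjusted p from 0.0614 to 0.127). Dkk3 did not pass with either day-0 replicate or either day-7 replicate left out (adjusted p from 0.0751 to 0.251). Nkd2 did not pass with day-0 replicate 2 or either day-7 replicate left out (adjusted p from 0.0691 to 0.14). Axin2, a feedback target of the pathway, had 19.6 and 26 at day 0 and 21.1 and 7.31 at day 7 and did not pass (adjusted p = 0.4).

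In the BMP and TGF-β list 3 of 35 rose, 4 fell and 28 did not pass (median -0.18). Of all genes tested, 6.84% were called higher and 7.36% lower. Without each day-7 library none rose and none fell, and 1 rose and 1 fell. In a fit of the 4 KD-Nap1l2 libraries alone 1 rose and 5 fell. The ligand gene Bmp4 had 2064 and 2454 at day 0 and 1082 and 1090.2 at day 7 (log2 fold change -1.06 ± 0.18, adjusted p = 0.0103), the decoy receptor gene Bambi 328 and 369 at day 0 and 86.2 and 132 at day 7 (log2 fold change -1.68 ± 0.27, adjusted p = 0.0082), and Skil, which encodes the Smad co-repressor SnoN, rose with 188 and 159 at day 0 and 717 and 408 at day 7 (log2 fold change 1.70 ± 0.31, adjusted p = 0.0138). Acvrl1, which encodes the receptor ALK1, had the deepest fall of the list, with 40.1 and 446 at day 0 and 8.02 and 11.5 at day 7 (log2 fold change -4.62 ± 1.16, adjusted p = 0.0368), and KD-Nap1l2 replicate 2 alone carried most of its day-0 level. The other rises were small, in the ubiquitin ligase gene Smurf1 (log2 fold change 0.53 ± 0.15, adjusted p = 0.0475) and the co-receptor gene Tgfbr3 (log2 fold change 0.49 ± 0.13, adjusted p = 0.0461). Bmp4 did not pass with either day-7 replicate left out (adjusted p from 0.0848 to 0.0931). Bambi did not pass with day-7 replicate 1 left out (adjusted p = 0.0758). Skil did not pass with day-0 replicate 2 or day-7 replicate 1 left out (adjusted p from 0.0632 to 0.0964). Acvrl1 did not pass with day-0 replicate 2 or either day-7 replicate left out (adjusted p from 0.157 to 0.215). Smurf1 and Tgfbr3 did not pass with either day-0 replicate or either day-7 replicate left out (adjusted p from 0.0591 to 0.261).

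The growth factor gene Igf1 (chr10:87858265-87937047) gave 1 of the deepest falls of an abundant gene, 36-fold, with 5166 and 5516 at day 0 and 126 and 170.2 at day 7 (log2 fold change -5.17 ± 0.39, adjusted p = 0.000575). In its list of 18 genes none rose, 6 fell and 12 did not pass (median -0.17), against 7.36% of all genes called lower. The 6 falls became 7 and 2 without each day-0 library and 2 without either day-7 library. Stc1, the stanniocalcin-1 gene, had 239.8 and 325 at day 0 and 13 and 23 at day 7 (log2 fold change -3.97 ± 0.41, adjusted p = 0.00167), and Igfbp2, which encodes a binding protein, had 25.4 and 71.8 at day 0 and 2.0 and 7.31 at day 7 (log2 fold change -3.36 ± 0.71, adjusted p = 0.0211). Igfbp2 did not pass with day-0 replicate 2 or either day-7 replicate left out (adjusted p from 0.0681 to 0.149). Igf2 had 3345 and 4515 at day 0 and 2343 and 3729 at day 7 and did not pass (adjusted p = 0.365).

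Fat cell genes split. Of 26 tested, 9 rose, 2 fell and 15 did not pass (median 0.11), against 6.84% of all genes called higher and 7.36% lower. The 9 rises became 9 and 7 without each day-0 library and 6 and 5 without each day-7 library. Fabp4, the fatty acid carrier of adipocytes, rose 8.66-fold, with 123 and 289 at day 0 and 1535 and 2034 at day 7 (log2 fold change 3.12 ± 0.37, adjusted p = 0.00298), Plin2, which coats lipid droplets, had 3679 and 4209 at day 0 and 19079.6 and 17571 at day 7 (log2 fold change 2.22 ± 0.24, adjusted p = 0.00213), and the transcription factor gene Klf15 had 53.8 and 53.1 at day 0 and 257 and 259 at day 7 (log2 fold change 2.27 ± 0.24, adjusted p = 0.0018). Pparg, the master regulator of adipogenesis, had 642 and 745 at day 0 and 1161 and 1444 at day 7 (log2 fold change 0.91 ± 0.17, adjusted p = 0.0132). Its partner Cebpa fell, with 198 and 147 at day 0 and 40.1 and 25.1 at day 7 (log2 fold change -2.40 ± 0.42, adjusted p = 0.0117), as did the lipase gene Lpl, with 699 and 930.4 at day 0 and 190.5 and 371 at day 7 (log2 fold change -1.54 ± 0.32, adjusted p = 0.0205). The hormone gene Adipoq stayed near the limit, with counts of 18 and 1 at day 0 and 1 and 8 at day 7, and the 6 members not tested included the droplet genes Plin1 and Cidec. Pparg did not pass with day-7 replicate 2 left out (adjusted p = 0.104). Cebpa did not pass with either day-7 replicate left out (adjusted p from 0.0669 to 0.103). Lpl did not pass with day-0 replicate 2 or day-7 replicate 1 left out (adjusted p from 0.0746 to 0.108).

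Of 50 cell cycle genes tested, none rose, 12 fell and 38 did not pass, against 7.36% of all genes called lower. A negative log2 fold change was seen in 46 of the 50, and the median was -0.69. The number lower depended on the fit: 22 fell by DESeq2 and 27 in a fit of the 4 KD-Nap1l2 libraries alone. The 12 were Cdc20, Cdc25b, Cdc25c, Mki67, Top2a, Bub1, Bub1b, Cenpa, Cenpf, Kif11, Kif20a and Prc1. Top2a, which encodes the topoisomerase of dividing cells, had 6779 and 6929 at day 0 and 3138 and 3242 at day 7 (log2 fold change -1.10 ± 0.24, adjusted p = 0.0226), the proliferation marker Mki67 8184 and 7209 at day 0 and 3549.9 and 2927 at day 7 (log2 fold change -1.25 ± 0.32, adjusted p = 0.0395), and Cenpf, of the kinetochore, 1327 and 1549 at day 0 and 535 and 502 at day 7 (log2 fold change -1.47 ± 0.31, adjusted p = 0.0213). The phosphatase gene Cdc25c had 324 and 315 at day 0 and 128 and 107 at day 7 (log2 fold change -1.44 ± 0.28, adjusted p = 0.017) and the spindle midzone gene Prc1 2811 and 2935 at day 0 and 1014 and 1162 at day 7 (log2 fold change -1.40 ± 0.35, adjusted p = 0.037). Cdc20 and Kif11 were named after their values were seen, for their promoters: Cdc20, an activator of the anaphase-promoting complex, had 957 and 870.0 at day 0 and 369 and 368 at day 7 (log2 fold change -1.31 ± 0.31, adjusted p = 0.0313), and Kif11, a spindle motor, 1685 and 1639 at day 0 and 696 and 712 at day 7 (log2 fold change -1.24 ± 0.27, adjusted p = 0.0231). The replication genes Pcna, with 3385 and 2345 at day 0 and 2306 and 2565 at day 7, and Mcm2, with 1595 and 1262 at day 0 and 1218 and 1249 at day 7, did not pass. Nor did mitotic genes such as Ccnb1, Cdk1 and Plk1, with log2 fold changes of -1.07 (adjusted p = 0.0816), -0.93 (adjusted p = 0.0744) and -0.99 (adjusted p = 0.11). None of the 12 calls held in all 4 fits that left out a library, and the number lower was 6 and 2 without each day-0 library and 0 without either day-7 library. Top2a, Cenpf and Kif11 did not pass with day-0 replicate 2 or either day-7 replicate left out (adjusted p from 0.0628 to 0.151). Mki67, Prc1 and Cdc20 did not pass with either day-0 replicate or either day-7 replicate left out (adjusted p from 0.0676 to 0.213). Cdc25c did not pass with either day-7 replicate left out (adjusted p from 0.101 to 0.134).

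Many genes of mitosis carry a cell cycle homology region (CHR, TTTGAA) and CCAAT boxes close to their starts, and 3 promoters are shown in which both were read. The capitals mark TTTGAA and CCAAT on either strand, so that TTCAAA and ATTGG are the same elements read in reverse, and each window runs from 110 to 13 bases before the RefSeq start, outside the annotated span of its gene and of any GENCODE exon.
Cdc20 (chr4:118437356-118437453, minus strand): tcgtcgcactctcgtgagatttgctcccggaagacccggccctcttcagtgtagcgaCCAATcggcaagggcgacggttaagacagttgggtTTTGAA
Kif11 (chr19:37376272-37376369, plus strand): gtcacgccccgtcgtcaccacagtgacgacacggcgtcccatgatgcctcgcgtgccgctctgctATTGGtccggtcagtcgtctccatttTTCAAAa
Top2a (chr11:99024202-99024299, minus strand): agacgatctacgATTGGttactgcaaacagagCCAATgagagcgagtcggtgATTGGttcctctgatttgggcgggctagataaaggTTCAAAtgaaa
TTTGAA was found in 20.2% of all 27025 genes in the promoter table, in 14.7% of the 10651 tested genes with a promoter and in 16 of the 40 tested cell cycle genes with one (40.0%). CCAAT was found in 41.1%, 43.8% and 75.0%. Promoters were matched for 80.0% of the tested cell cycle genes, against 79.1% of all tested genes, so these shares describe the matched genes and the comparison with all tested genes is void. Of the 12 cell cycle genes that fell, 10 had a promoter in the table, 8 of these held TTTGAA and all 10 held CCAAT.

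Smooth muscle genes gave falls and no rises. Of 19 smooth muscle genes tested, none rose, 8 fell and 11 did not pass (median -0.73), against 7.36% of all genes called lower. Without each day-0 library 6 and 8 fell, and without either day-7 library none. Acta2, the smooth muscle actin gene, had 57929 and 36239 at day 0 and 10088 and 14219.6 at day 7 (log2 fold change -1.95 ± 0.38, adjusted p = 0.0157), and the light chain gene Myl9 had 3646 and 1958 at day 0 and 661 and 947 at day 7 (log2 fold change -1.80 ± 0.44, adjusted p = 0.0334). Actg2, the other smooth muscle actin gene, fell most, with 144 and 60.4 at day 0 and 12 and 4.18 at day 7 (log2 fold change -3.63 ± 0.81, adjusted p = 0.026). Tagln, a common marker of this programme, had only counts of 19 and 9 at day 0 and 5 and 0 at day 7. Acta2 did not pass with either day-7 replicate left out (adjusted p from 0.0791 to 0.132). Myl9 and Actg2 did not pass with day-0 replicate 1 or either day-7 replicate left out (adjusted p from 0.0686 to 0.211).

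Of 26 CDK inhibitor and p53 target genes, 3 rose, 2 fell and 21 did not pass (median 0.20). The background was 6.84% of all genes called higher and 7.36% lower. By DESeq2 6 rose and 2 fell, and without each day-7 library 1 rose, with 0 and 1 that fell. Trp53inp1 had 3464 and 3258 at day 0 and 9985 and 8274 at day 7 (log2 fold change 1.44 ± 0.20, adjusted p = 0.00504), Mdm2, which encodes the ubiquitin ligase of p53, 2764 and 2747 at day 0 and 7046 and 5882 at day 7 (log2 fold change 1.23 ± 0.23, adjusted p = 0.0136), and the INK4 inhibitor gene Cdkn2c fell with 1102 and 995 at day 0 and 472 and 582 at day 7 (log2 fold change -0.99 ± 0.14, adjusted p = 0.00493). Sesn1, a stress-induced gene, had 1335 and 1287 at day 0 and 2156 and 2244 at day 7 (log2 fold change 0.75 ± 0.13, adjusted p = 0.0116), and Cdkn2d, another INK4 gene, 489 and 711 at day 0 and 259 and 311 at day 7 (log2 fold change -1.07 ± 0.27, adjusted p = 0.0359). The gene of the inhibitor p21, Cdkn1a, had 7325 and 11378 at day 0 and 12286 and 11022 at day 7 and did not pass. Mdm2 and Cdkn2d did not pass with day-0 replicate 2 or either day-7 replicate left out (adjusted p from 0.0543 to 0.217). Cdkn2c did not pass with day-7 replicate 1 left out (adjusted p = 0.0543). Sesn1 did not pass with either day-7 replicate left out (adjusted p from 0.0822 to 0.0898).

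Genes of redox defence gave more rises than falls. Of 28 antioxidant and metallothionein genes, 9 rose, 1 fell and 18 did not pass (median 0.29), against 6.84% of all genes higher and 7.36% lower. The 9 rises became 7 and 8 without each day-0 library and 5 and 4 without each day-7 library. Selenop (chr15:3270767-3280510), which encodes the selenium carrier selenoprotein P, became 1 of the most abundant RNAs, rising 11.3-fold, with 8063 and 8478 at day 0 and 88125 and 99113 at day 7 (log2 fold change 3.50 ± 0.18, adjusted p = 0.000123). Gclc, the catalytic subunit of glutathione synthesis, had 785 and 570.3 at day 0 and 4674 and 4886 at day 7 (log2 fold change 2.82 ± 0.19, adjusted p = 0.000447), and the microsomal glutathione transferase gene Mgst1 had 282 and 308 at day 0 and 1169 and 1924 at day 7 (log2 fold change 2.39 ± 0.25, adjusted p = 0.0019). The zinc and iron importer gene Slc39a14 had 1284 and 1692 at day 0 and 4311 and 3817 at day 7 (log2 fold change 1.45 ± 0.19, adjusted p = 0.00401). Gstt1, another glutathione transferase gene, was the 1 that fell, with 897 and 1000.1 at day 0 and 229.6 and 411 at day 7 (log2 fold change -1.57 ± 0.25, adjusted p = 0.00867).

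The result for glycolysis and hypoxia genes depended on 1 library. Of 30 tested, none rose, 3 fell and 27 did not pass (median -0.95). The share called lower was 10%, near the 7.36% of all genes. At day 0, KD-Nap1l2 replicate 2 was higher than replicate 1 by a median of 1.79 on the log2 scale. The carbonic anhydrase gene Car9 had 261 and 3716 at day 0 and 48.1 and 99.2 at day 7 (log2 fold change -4.76 ± 1.17, adjusted p = 0.0344), and Ndrg1, another gene of low oxygen, 9684 and 40411 at day 0 and 3214 and 5249 at day 7 (log2 fold change -2.57 ± 0.67, adjusted p = 0.0412). The third was the phosphofructokinase gene Pfkm, with 1911 and 2635 at day 0 and 1247 and 1175 at day 7 (log2 fold change -0.91 ± 0.18, adjusted p = 0.018). The lactate dehydrogenase gene Ldha had 8859.8 and 27115 at day 0 and 6777 and 8332 at day 7 and did not pass. Without KD-Nap1l2 replicate 1, 24 members were called lower with a median of -1.52. Without KD-Nap1l2 replicate 2, 4 were called higher and 1 lower, and the median turned to 0.14. The direction for this list thus depended on which day-0 library was used. The 3 falls became 1 in a fit of the 4 KD-Nap1l2 libraries alone and 7 by DESeq2. Car9, Ndrg1 and Pfkm did not pass with day-0 replicate 2 or either day-7 replicate left out (adjusted p from 0.0545 to 0.237).

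**Figure D4:**
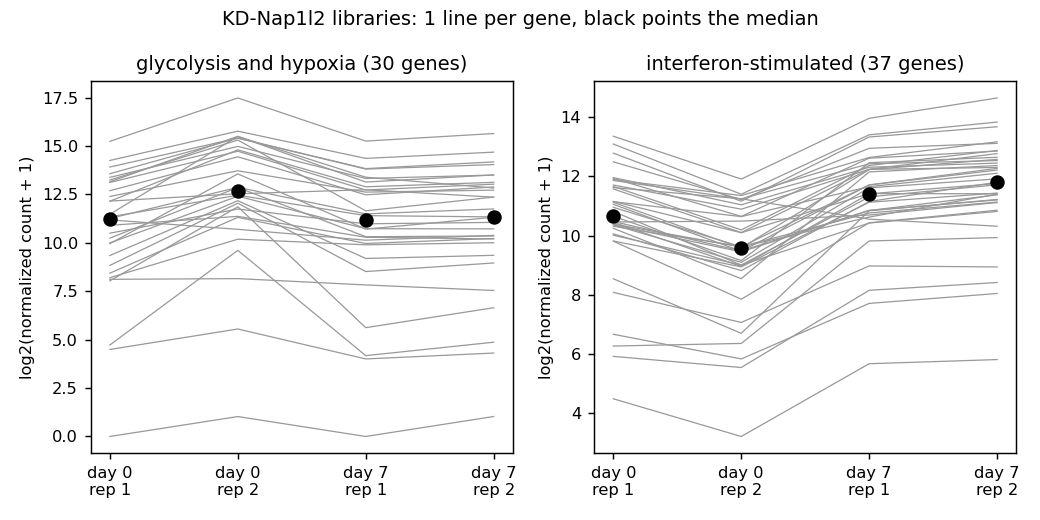
Log2(normalized count + 1) in the 4 KD-Nap1l2 libraries for the 30 glycolysis and hypoxia genes (left) and the 37 interferon-stimulated genes (right), 1 line per gene, with black points at the median. The median hypoxia level was 11.22 and 12.69 in the 2 day-0 libraries and 11.19 and 11.33 at day 7, and the median interferon level 10.65 and 9.58 at day 0 and 11.42 and 11.8 at day 7.

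None of 48 cytosolic ribosomal protein genes passed in either direction, also at an unadjusted p of 0.05 and by DESeq2. Over all genes tested 14.2% passed, and 4227 of 13470 had an unadjusted p under 0.05. The log2 fold changes of the ribosomal protein genes lay between -0.30 and 0.20. Of 24 cholesterol synthesis genes none rose, 4 fell and 20 did not pass (median -0.71), against 7.36% of all genes called lower. The sterol transfer gene Stard4 had 605 and 1043 at day 0 and 349 and 423 at day 7 (log2 fold change -1.09 ± 0.29, adjusted p = 0.0435) and the demethylase gene Cyp51 1552 and 1924 at day 0 and 903 and 939.8 at day 7 (log2 fold change -0.92 ± 0.21, adjusted p = 0.0295). Stard4 and Cyp51 did not pass with day-0 replicate 2 or either day-7 replicate left out (adjusted p from 0.107 to 0.239). Of the list, 8 genes were called lower in a fit of the 4 KD-Nap1l2 libraries alone, 7 by DESeq2, 7 without day-0 replicate 1 and 0 without any 1 of the other 3 libraries.

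Of 17 clock genes 3 rose, 4 fell and 10 did not pass (median -0.58), against 6.84% of all genes called higher and 7.36% lower. In a fit of the 4 KD-Nap1l2 libraries alone 1 rose and 3 fell. Without each day-0 library 1 and 2 rose and 7 and 3 fell, and without each day-7 library none rose, with 1 and 0 that fell. Arntl, which encodes the activator BMAL1, had 589 and 650.4 at day 0 and 1483 and 1188 at day 7 (log2 fold change 1.11 ± 0.27, adjusted p = 0.034), while the repressor gene Per3 fell with 948 and 1545 at day 0 and 372 and 326 at day 7 (log2 fold change -1.84 ± 0.24, adjusted p = 0.00378) and the output gene Dbp with 369.9 and 813 at day 0 and 168 and 200.5 at day 7 (log2 fold change -1.68 ± 0.34, adjusted p = 0.0191). Per2 went the other way from Per3, with 237 and 348 at day 0 and 466 and 534 at day 7 (log2 fold change 0.78 ± 0.22, adjusted p = 0.0499). The nuclear receptor gene Nr1d2 fell from 1398 and 1169.8 to 930.3 and 766 (log2 fold change -0.60 ± 0.16, adjusted p = 0.0448). The median of the list turned to 0.23 without KD-Nap1l2 replicate 2. Arntl and Nr1d2 did not pass with either day-0 replicate or either day-7 replicate left out (adjusted p from 0.0517 to 0.237). Per3 did not pass with day-7 replicate 2 left out (adjusted p = 0.0511). Dbp did not pass with either day-7 replicate left out (adjusted p from 0.106 to 0.144). Per2 did not pass with day-0 replicate 1 or either day-7 replicate left out (adjusted p from 0.122 to 0.237).

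Of 37 interferon-stimulated genes tested, 3 rose, none fell and 34 did not pass (median 1.35). The share that rose was 8.11%, near the 6.84% of all genes called higher. An unadjusted p under 0.05 was seen in 15 of the 37, against 4227 of all 13470 genes tested. By DESeq2 6 rose, against 1109 of all genes tested. In a fit of the 4 KD-Nap1l2 libraries alone 11 rose and 1 fell. The 3 rises became 8 and 1 without each day-0 library and 0 without either day-7 library. Both day-7 libraries lay above both day-0 libraries in 36 of the 37 genes, against 30.8% of all genes tested. Oas3, which encodes an oligoadenylate synthetase, had 76.3 and 81.2 at day 0 and 901 and 975 at day 7 (log2 fold change 3.57 ± 0.60, adjusted p = 0.0101), Oas2 1608 and 569 at day 0 and 5626 and 6389 at day 7 (log2 fold change 2.46 ± 0.60, adjusted p = 0.0332) and the Z-nucleic acid sensor gene Zbp1 372 and 103 at day 0 and 1825 and 2381 at day 7 (log2 fold change 3.14 ± 0.84, adjusted p = 0.044). The antiviral gene Rsad2 had 59.7 and 45.8 at day 0 and 284 and 340.4 at day 7 and did not pass (adjusted p = 0.0692). KD-Nap1l2 replicate 1 was higher than replicate 2 in these genes by a median of 1.24 on the log2 scale, so the gain over day 0 depended on the library it was measured from: the median was 2.34 without replicate 1 and 0.88 without replicate 2. Oas3 did not pass with either day-7 replicate left out (adjusted p from 0.0543 to 0.0574). Oas2 and Zbp1 did not pass with day-0 replicate 2 or either day-7 replicate left out (adjusted p from 0.107 to 0.165).

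Antigen presentation genes gave 1 rise, 1 fall and 18 that did not pass among 20 (median 0.59). Over all genes 6.84% were called higher and 7.36% lower. In a fit of the 4 KD-Nap1l2 libraries alone 5 rose and 1 fell, and by DESeq2 3 rose and 1 fell. Without either day-7 library none rose or fell, and without KD-Nap1l2 replicate 2 none rose and 1 fell. Nlrc5, the activator of MHC class I genes, had 319 and 157 at day 0 and 681 and 817 at day 7 (log2 fold change 1.65 ± 0.43, adjusted p = 0.0402), while the class I genes, whose reads can be shared, did not pass. H2-K1 had 7406 and 6103 at day 0 and 10659.6 and 12009 at day 7, and H2-D1 had 7187 and 6072 at day 0 and 9999.9 and 11504 at day 7. Their light chain gene B2m had 37822 and 36514 at day 0 and 58110.0 and 69302 at day 7 (adjusted p = 0.0812). Cd74, the invariant chain of class II, fell with 1093 and 588 at day 0 and 221 and 299 at day 7 (log2 fold change -1.70 ± 0.30, adjusted p = 0.0118). Nlrc5 did not pass with day-0 replicate 2 or either day-7 replicate left out (adjusted p from 0.14 to 0.177). Cd74 did not pass with either day-7 replicate left out (adjusted p from 0.0602 to 0.108).

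The response was next set beside that of the NC cells, in which 1106 genes passed the same test (8.21%), 651 higher (4.83%) and 455 lower (3.38%). A total of 742 genes were called in both lines in the same direction, 38.8% of the KD-Nap1l2 calls and 67.1% of the NC calls, and none in opposite directions. Of the 1912 KD-Nap1l2 calls, 1851 had the same sign in NC and 61 the opposite sign, and 1497 were larger in KD-Nap1l2, the line in which they had been called. A larger number of calls in 1 line does not show that the lines differ, so the difference of the 2 responses was tested itself: it passed in 0 genes by edgeR (smallest adjusted p = 0.109) and in 97 by DESeq2, and 948 genes (7.04%) had an unadjusted p under 0.05, 378 of them among the 1912.

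**Figure D5:**
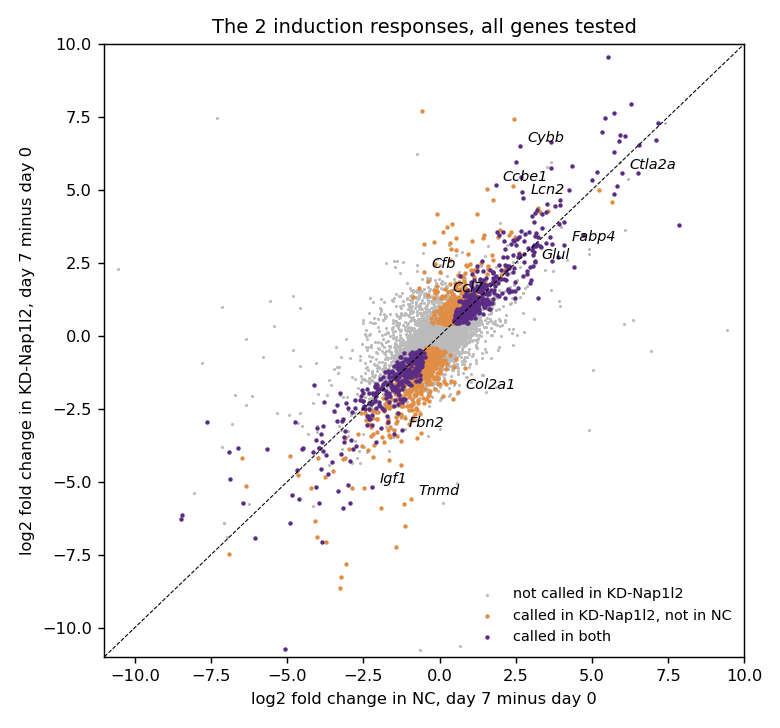
Log2 fold change at day 7 in KD-Nap1l2 (vertical) against that in NC (horizontal) for all tested genes, with genes called in both in purple, genes called in KD-Nap1l2 and not in NC in orange, and the dashed line where the 2 are equal. Ctla2a, Glul and Fabp4 lie on or below the line, and Ccbe1, Cybb and Cfb above it.

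The 6 called genes with the smallest p for the difference are given as a description, since none passed after adjustment. Ccbe1, which encodes a secreted factor of lymphatic vessel growth, went from 5.87 and 7.28 to 222 and 258 in KD-Nap1l2 and from 90.6 and 107 to 359.7 and 348 in NC (difference of the log2 fold changes 3.32 ± 0.33, unadjusted p = 8.09e-06, adjusted p = 0.109). The potassium channel gene Kcns3 had counts of 0 and 0 at day 0 and 22 and 29 at day 7 in KD-Nap1l2, at least 7.06-fold higher at day 7, and 60 and 51 at day 0 and 37 and 33 at day 7 in NC (unadjusted p = 6.15e-05). Ccl7 in NC went from 2223 and 2273 to 2659 and 2399.9, where KD-Nap1l2 started lower and ended higher (difference 1.20 ± 0.16, unadjusted p = 8.27e-05). Cfb in NC went from 188 and 294 to 207 and 133 (difference 2.69 ± 0.42, unadjusted p = 0.000218). For 2 genes of the matrix and its growth factors the fall was deeper in KD-Nap1l2: Fbn2 went from 2560.0 and 1965 to 819.9 and 1093 in NC (difference -1.99 ± 0.30, unadjusted p = 0.000175) and Igf1 from 3855 and 2145 to 483 and 819.8 (difference -2.97 ± 0.47, unadjusted p = 0.000247). The glucocorticoid list had a median of 1.86 in KD-Nap1l2 and 1.93 in NC. In it 5 of 28 genes had an unadjusted p under 0.05 for the difference, against 7.04% of all genes tested. For the antigen presentation genes this count was 18 of 20, with a median of 0.59 in KD-Nap1l2 and -1.27 in NC. For the interferon-stimulated genes it was 17 of 37, with medians of 1.35 and -0.52. Other lists also stood above the share of all genes. Among them were the cartilage genes with 10 of 19 (medians of -0.63 and 0.14) and the NF-κB targets and secreted factors with 10 of 38. Some lists stood below it, such as the cell cycle genes with 1 of 50. The interferon-stimulated genes summed to 200086 and 274838 normalized counts in NC and 243362 and 68254 in NC-7d, so that NC-7d replicate 2 stood apart. The antigen presentation genes summed to 152259 and 191516 in NC and 106168 and 58608 in NC-7d, again lowest in replicate 2. In KD-Nap1l2 cells the interferon-stimulated genes summed to 89814 and 40478 at day 0 and 140013 and 182612 at day 7. There the antigen presentation genes summed to 68082 and 61578 at day 0 and 95898 and 114385 at day 7. For both lists KD-Nap1l2 cells thus started below NC cells and ended below the NC level of day 0.

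Markers of other cell types were mostly scarce in the KD-Nap1l2 libraries. Of the 16 mesenchymal markers tested, 1 rose, 4 fell and 11 did not pass, against 6.84% of all genes higher and 7.36% lower. Alcam had 619 and 701 at day 0 and 1501 and 1235 at day 7 (log2 fold change 1.05 ± 0.29, adjusted p = 0.0499), and of those that fell Thy1 had 118 and 190.4 at day 0 and 56.1 and 65.8 at day 7 (log2 fold change -1.34 ± 0.30, adjusted p = 0.0267). S100a4 and Cspg4 also fell (log2 fold change -1.24 ± 0.30, adjusted p = 0.0332 and log2 fold change -0.86 ± 0.19, adjusted p = 0.0247). Alcam and S100a4 did not pass with either day-0 replicate or either day-7 replicate left out (adjusted p from 0.0521 to 0.239). Thy1 and Cspg4 did not pass with day-0 replicate 2 or either day-7 replicate left out (adjusted p from 0.0871 to 0.184). The 12 endothelial markers summed to 399 and 609 normalized counts at day 0 and 903 and 1030 at day 7, with 3 or 4 at 0 in each library. Of these Flt1, which encodes a VEGF receptor, had 199.6 and 403 at day 0 and 769 and 734 at day 7 (log2 fold change 1.32 ± 0.36, adjusted p = 0.0479), while Tek had 99.8 and 88.5 at day 0 and 10 and 16.7 at day 7 (log2 fold change -2.81 ± 0.45, adjusted p = 0.00825) and the transcription factor gene Erg had counts of 17 and 13 at day 0 and 0 and 1 at day 7 (adjusted p = 0.0195). Flt1 did not pass with day-0 replicate 1 or either day-7 replicate left out (adjusted p from 0.114 to 0.2). Tek and Erg did not pass with either day-7 replicate left out (adjusted p from 0.0528 to 0.14). The 12 leukocyte markers in the table summed to 330 and 424 at day 0 and 457 and 607 at day 7, and the CD45 gene Ptprc had counts of 4 and 0 at day 0 and 1 and 0 at day 7. The 12 epithelial markers summed to 174 and 112 at day 0 and 43.1 and 64.7 at day 7, with 5 to 8 of them at 0. Of 2 tested Cdh1, the E-cadherin gene, fell, with 147 and 102 at day 0 and 40.1 and 53.3 at day 7 (log2 fold change -1.41 ± 0.31, adjusted p = 0.0232), and Epcam had counts of 0 and 0 at day 0 and 1 and 0 at day 7. The 12 skeletal muscle markers summed to 334 and 662 at day 0 and 152 and 175 at day 7, with 283 and 609 at day 0 and 132 and 159 at day 7 for Tnni1 (log2 fold change -1.61 ± 0.39, adjusted p = 0.0331) and 22.5 and 33.3 at day 0 and 6.01 and 5.22 at day 7 for Tnnt3 (log2 fold change -2.28 ± 0.52, adjusted p = 0.027). Of 7 neural markers tested, Gfap, the astrocyte filament gene, fell, with 94 and 72.8 at day 0 and 15 and 17.8 at day 7 (log2 fold change -2.34 ± 0.53, adjusted p = 0.0266), and 6 did not pass. Cdh1 did not pass with day-0 replicate 1 or either day-7 replicate left out (adjusted p from 0.0655 to 0.176). Tnni1 and Tnnt3 did not pass with day-0 replicate 2 or either day-7 replicate left out (adjusted p from 0.0989 to 0.202). Gfap did not pass with either day-0 replicate or either day-7 replicate left out (adjusted p from 0.0538 to 0.176). The part of such cells in the results was not tested. In these bulk samples, fewer cells of a type and less RNA per cell cannot be told apart.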

How the data were processed

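RNA of C3H10T1/2 cells in 4 groups of 2 libraries was sequenced. The authors deposited 1 table of all genes with estimated counts and FPKM values per library. The processing notes name BWA, Bowtie2 and RSEM, without versions or roles, and GRCm38.p6 as the build. RSEM divides reads shared by similar genes, which can blur paralogs, and a count was not whole in 41.1% of genes (tolerance 0.005). The authors also deposited 2 tables of their own comparisons, with fold changes and p-values, and a transcript table, and these were not used.

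Counts were rounded to whole numbers, filtered with filterByExpr and scaled by TMM in edgeR 4.0.16 (R 4.3.3), and the quasi-likelihood test was fitted to 13470 genes in all 8 libraries, with 1 mean for each of the 4 groups, so that the NC libraries added to the estimate of spread. The study's methods state no test for these RNA-seq libraries. Log2 fold changes are day 7 minus day 0, standard errors were obtained as log2 fold change over √F, and the threshold was a Benjamini-Hochberg adjusted p of 0.05 over all 13470 genes. With 2 libraries against 2, the smallest exact permutation p is 0.333, so single genes were tested by this model alone. The procedure was tested on simulated counts. Libraries held 17420284 to 19427359 counts, so that the floor of 3 counts was 0.154 to 0.172 CPM. Counting intervals are exact binomial ones at 95%.

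Genes were named by rule, first the 12 largest rises and falls among called genes averaging 50 or more normalized counts without overlap between groups. Added to these were key genes of each list and the 3 largest called rises and falls in each of 30 lists. The 5 most abundant called genes in each direction and the 6 smallest p-values for the difference from NC completed the rule. A few of the genes so named are not reported here. Groups, lists and named genes were chosen with earlier results of these data known. Motifs were sought on both strands of RefSeq promoters, and the printed windows were checked against GENCODE exons and RefSeq gene spans. Alternatives were DESeq2 1.42.0, RLE scaling, other filters, limma 3.58.1 on log2(FPKM + 1) and log2(FPKM + 0.1) of the deposited FPKM, a replicate block, the 4 KD-Nap1l2 libraries alone, and leaving out each library, where the lone library of a group was assumed to vary like the others. Figures were drawn with matplotlib 3.10.9.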

Additional observations from a re-analysis of the deposited data

Results flagged for a closer look

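For 7 of the genes named, both day-7 libraries lay on 1 side of both day-0 libraries in KD-Nap1l2 cells and on the other side in NC cells. The share of all genes with this pattern was not counted. In KD-Nap1l2 cells alone the groups did not overlap in 61.4% of all genes tested. Kcns3 had been named for its small p for the difference, so it was picked for such a pattern. In none of them did the difference between the responses pass the adjusted threshold of edgeR's test, and each value below is the log2 fold change in KD-Nap1l2 minus that in NC. The chemokine gene Ccl2 had a difference of 1.47 ± 0.24 (adjusted p = 0.343), with 3923 and 3549.5 to 3240.2 and 3342 in NC cells. The cartilage collagen gene Col2a1 had a difference of -2.56 ± 0.43 (adjusted p = 0.343), with 96.5 and 97.2 to 178 and 121 in NC cells. For the potassium channel gene Kcns3 the fitted difference of 8.30 ± 0.96 (adjusted p = 0.343) depends on the prior count, since both KD-Nap1l2 libraries were at 0 at day 0. The antiviral gene Rsad2 had a difference of 3.94 ± 1.08 (adjusted p = 0.513), with 449 and 589.9 to 359.7 and 41.2 in NC cells. Of the antigen presentation genes, B2m had a difference of 1.71 ± 0.36 (adjusted p = 0.408), H2-K1 of 2.18 ± 0.52 (adjusted p = 0.442) and H2-D1 of 1.86 ± 0.42 (adjusted p = 0.439). In KD-Nap1l2 cells alone Rsad2, B2m, H2-K1 and H2-D1 did not pass the test of induction.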

How the results depend on the processing

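The number of genes called in KD-Nap1l2 cells depended most on the replicates. It was 1912 with all libraries and from 305 to 2200 with 1 of the 4 KD-Nap1l2 libraries left out, and 1039 when a change of at least 2-fold was also required. It was 2382 by DESeq2, 1898 with RLE scaling, 2019 without a filter, 1763 with at least 10 counts in every library, 1749 in the 4 libraries alone, and 1631 and 1704 by limma on log2(FPKM + 1) and log2(FPKM + 0.1). In NC cells the 1106 calls became from 122 to 926 with 1 NC library left out, and the fewest were left without NC replicate 1. For the difference between the responses, the 0 calls became 97 by DESeq2, 1 without a filter and from 0 to 19 with 1 library left out, where the 19 came without NC-7d replicate 1. The cause was not tested. Of the 161 named genes called, 1 turned its direction: Runx2 had a log2 value of 0.0114 on the log2(FPKM + 1) scale and 0.012 on the log2(FPKM + 0.1) scale, and the cause was not tested. Without day-7 replicate 1, 94 of the 161 no longer passed, and without replicate 2, 88, against 22 and 43 without each day-0 replicate.

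Groups shared replicate numbers, but deviations of libraries with the same number correlated by -0.049 to 0.109 between groups, so the numbers were not taken to pair the libraries. With the replicate number as a block, 1757 genes were called in KD-Nap1l2 cells, 961 in NC cells and 0 for the difference, and 12 of the 161 named genes no longer passed.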

Other observations

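Gene families described here were listed after their values had been seen, so their counts are descriptions. All 12 tested members of the Ifi200 family, interferon-inducible sensors and regulators encoded in 1 cluster on chromosome 1, rose in KD-Nap1l2 cells, with a median log2 fold change of 3.32, against 6.84% of all genes called higher. Of the 12, 10 and 9 were called without each day-0 library and 6 without either day-7 library. Ifi207 had 369.9 and 255 at day 0 and 13439.5 and 13913 at day 7 (log2 fold change 5.45 ± 0.49, adjusted p = 0.000974) and Ifi204 1688 and 1249.9 at day 0 and 6895 and 8667 at day 7 (log2 fold change 2.40 ± 0.31, adjusted p = 0.00378). In NC cells 4 of the 12 rose, with a median of 1.23, against 4.83% of all genes called higher in NC. The difference of the responses had an unadjusted p under 0.05 in 10, against 7.04% of all genes tested, and passed adjustment in 0. Members of this family are near-identical in parts, so reads may have been divided among them. Ctla2a, which encodes a cysteine protease inhibitor, had 210.4 and 180.0 at day 0 and 8570.4 and 10189 at day 7 (log2 fold change 5.58 ± 0.26, adjusted p = 6.71e-05), and its relative Ctla2b 17.6 and 12.5 at day 0 and 514 and 562 at day 7 (log2 fold change 5.14 ± 0.22, adjusted p = 4.32e-05). Serpina3m, a neighbour of Serpina3n, had 37.2 and 61.4 at day 0 and 1478 and 1637 at day 7 (log2 fold change 4.98 ± 0.28, adjusted p = 0.000172). NONE

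Of 32 lysosomal genes tested, 14 rose, 1 fell and 17 did not pass, against 6.84% of all genes called higher. Their median log2 fold change was 0.66. In NC cells 4 rose and 1 fell, against 4.83% of all genes called higher and 3.38% lower there. The cathepsin D gene Ctsd had 17288 and 19963 at day 0 and 34883 and 39694 at day 7 (log2 fold change 1.001 ± 0.15, adjusted p = 0.00671), the alpha-galactosidase gene Gla 516 and 481 at day 0 and 1190.0 and 1221 at day 7 (log2 fold change 1.27 ± 0.18, adjusted p = 0.00541), and the autophagy receptor gene Sqstm1 10549.9 and 12535 at day 0 and 26167 and 24064 at day 7 (log2 fold change 1.12 ± 0.18, adjusted p = 0.009). Lipa, the acid lipase gene, was the 1 that fell, with 9477 and 8978 at day 0 and 4971 and 5393 at day 7 (log2 fold change -0.83 ± 0.16, adjusted p = 0.0154). Ctsd did not pass with day-7 replicate 2 left out (adjusted p = 0.0633). Sqstm1 and Lipa did not pass with either day-7 replicate left out (adjusted p from 0.0545 to 0.132). The number of lysosomal genes that rose was 10 without either day-0 library and 3 and 2 without each day-7 library.

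For the remaining families the background was 6.84% of all genes called higher and 7.36% lower. Of 16 iron genes 5 rose and 1 fell, of 13 retinoid genes 2 rose and 1 fell, of 17 tendon genes 1 rose and 7 fell, of 10 genes of hypoxia-inducible factors and their regulators Hif3a alone rose and none fell, and of 6 other clade A3 serpins 5 rose. Without either day-7 library the rises became 3 among the iron genes and 2 among the serpins, and the tendon falls 3 and 4.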
